A study of Homo sapiens with 6 samples.

Results

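The FLT3 and STAT5 genes described here are the receptor kinase gene *FLT3*, the transcription factor genes *STAT5A* and *STAT5B*, and 7 of their known target genes, namely *PIM1*, *PIM2*, *PIM3*, *SOCS1*, *SOCS2*, *SOCS3* and *CISH*. They were taken by gene symbol, each matched a single row, and together they make up 10 of the 20348 genes in the deposited table. MV4-11 is an established human acute myeloid leukemia (AML) cell line of monocytic type that carries a *KMT2A* fusion and an internal tandem duplication of *FLT3*. RNA was sequenced from 3 Control samples, labelled untreated, and from 3 samples treated with WNK463, a compound that inhibits WNK kinases, at 1 μM for 48 h. The study asked which transcripts changed when WNK kinases were inhibited in these cells. All samples come from 1 cell line, and the labels do not say whether they were separate cultures, so p-values measure the spread between these samples, which may be technical.

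FLT3 is a receptor tyrosine kinase of early blood progenitors, and its internal tandem duplication makes the receptor signal without its ligand. The duplicated receptor phosphorylates STAT5, which then moves to the nucleus and switches on its target genes. Among these targets are the PIM kinases, serine/threonine kinases that support growth and survival, and the SOCS proteins and CIS (the product of *CISH*), which bind activated receptors or Janus kinases and dampen the signal that induced them. Transcript levels of these targets are therefore often read as an output of STAT5 activity, while the phosphorylation of FLT3 and STAT5 was not measured by RNA-seq.

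The total counts lay between 14915745 and 17411780 per sample, and 11973 genes passed the filter on low counts, all 10 FLT3 and STAT5 genes among them. Levels are given as CPM, which are counts scaled by library size with TMM factors, and levels of different genes are compared only as TPM, which also accounts for transcript length. TMM factors lay between 0.944 and 0.951 in Control and between 1.05 and 1.06 with WNK463, and under scaling by total counts the median log2 fold change over all genes was 0.15 higher, so a change of about this size depends on the scaling. The 8 markers fixed for monocytic AML cells were all expressed, and the sums of their levels lay between 1915 and 2018 CPM in Control and between 1094 and 1112 CPM with WNK463. Of these 8 markers 4 were higher, 3 were lower and 1 was not called. The most abundant, *LYZ*, went from 1355 to 291 CPM, and the other 7 summed to between 589 and 613 CPM in Control and between 807 and 815 CPM with WNK463. Of 16 markers of T, B, erythroid, megakaryocytic, fibroblast and epithelial cells, 2 passed the filter, *ITGA2B* and *KRT18*, and the erythroid markers summed to 0 CPM in all samples. The megakaryocytic markers summed to between 14.1 and 17.7 CPM in Control and between 40.6 and 43.2 CPM with WNK463, with *PF4* at 0, and the B cell markers to between 0.274 and 0.609 and between 0.664 and 1.15 CPM, with *MS4A1* at 0. The fibroblast and epithelial markers summed to between 9.80 and 10.6 CPM and between 5.99 and 6.83 CPM, with *COL1A2* and *EPCAM* at 0. The part of these marker changes in the results was not tested. In such bulk samples, fewer cells of a type and less RNA per cell cannot be told apart.

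Several target genes were higher with WNK463, while the receptor transcript differed little. *SOCS2*, *PIM1*, *PIM2* and *SOCS3* rose between 1.58-fold and 2.42-fold, *STAT5A* and *CISH* rose by smaller amounts, and *PIM3* and *SOCS1* did not pass the test. *FLT3* and *STAT5B* each had a log2 fold change of -0.20 with TMM scaling, and neither was called with total counts or in TPM. With edgeR's quasi-likelihood test at an adjusted p below 0.05, 6 of the 10 genes were higher and 2 lower. Among the 11973 tested genes, 70.8% were called in either direction, 35.5% higher and 35.3% lower. When a log2 change of 1 or more in size was also required, 2 of the 10 were higher and 0 were lower, against 9.62% higher, 5.55% lower and 15.2% in all over the tested genes. The WNK463 and Control samples did not overlap in CPM for 8 of the 10 genes, against 73.5% of all tested genes. The median log2 fold change of the 10 genes was 0.22, and that of all tested genes was 0.02. With scaling by total counts, 7 of the 10 were higher and 0 were lower, against 5525 higher and 3123 lower of the 11973 tested genes. Among called genes, the share that was higher was then 100% for the 10 genes, in place of 75%. Over all genes this share was 63.9% in place of 50.2%.

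**Figure D1:**
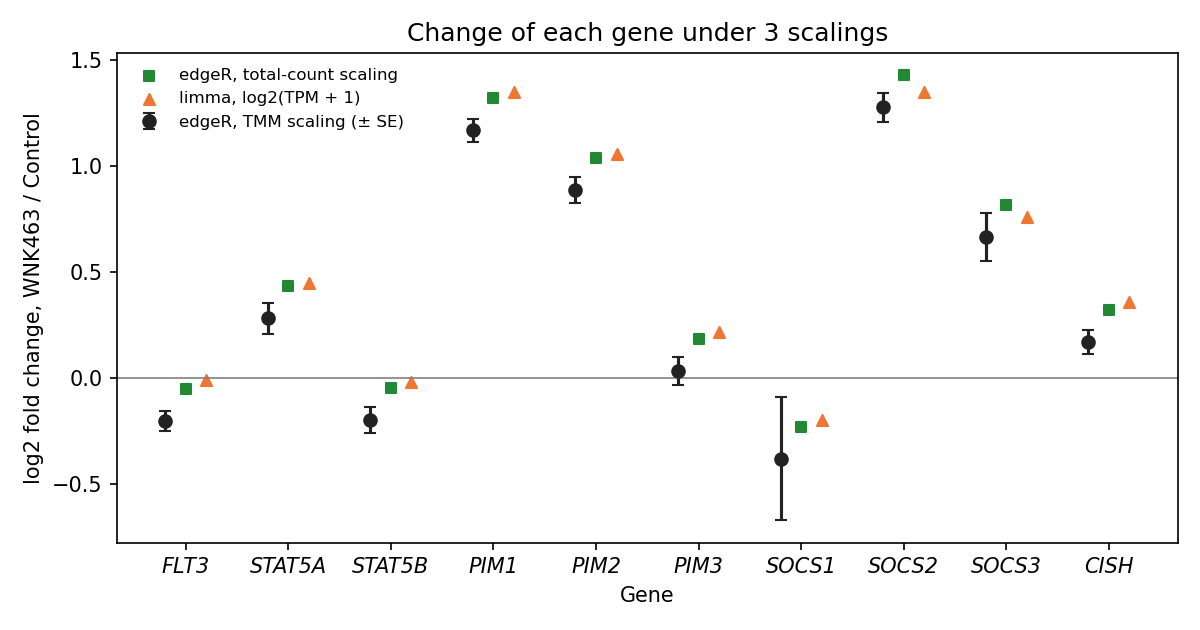
Log2 fold change of each gene, WNK463 over Control, with edgeR after TMM scaling (circles, bars show the standard error), with edgeR after total-count scaling (squares) and with limma on log2(TPM + 1) (triangles). *PIM1*, *PIM2*, *SOCS2* and *SOCS3* lie above 0.6 in every fit, while *FLT3* and *STAT5B* lie near 0 in the fits that do not use TMM.

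Per length, *FLT3* was the highest of the 10 genes in Control, at 179.6 ± 10.9 TPM (SD, n = 3), which was rank 868 among all genes. *PIM1* followed with 66.5 ± 3.40 TPM, *CISH* with 59.6 ± 1.12 TPM and *PIM3* with 40.4 ± 1.41 TPM. *PIM2*, *STAT5B*, *STAT5A* and *SOCS2* had mean levels between 30.8 and 33.8 TPM in Control, and neighbours among these 4 overlapped in their samples. *SOCS3* and *SOCS1* were the lowest, at 5.91 ± 0.204 and 3.81 ± 0.903 TPM. With WNK463 the order changed below *FLT3*, which had 178 ± 3.03 TPM. *PIM1* rose to 170.7 ± 4.0 TPM, so that its highest sample (173.8 TPM) came just under the lowest *FLT3* sample (175.7 TPM). *SOCS2* moved from the eighth to the third place, at 79.9 ± 2.78 TPM, and overlapped with *CISH* at 76.6 ± 2.42 TPM. *PIM2* passed *PIM3*, with 71.4 ± 0.907 against 47.2 ± 3.00 TPM. *SOCS3* and *SOCS1* remained the lowest.

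**Figure D2:**
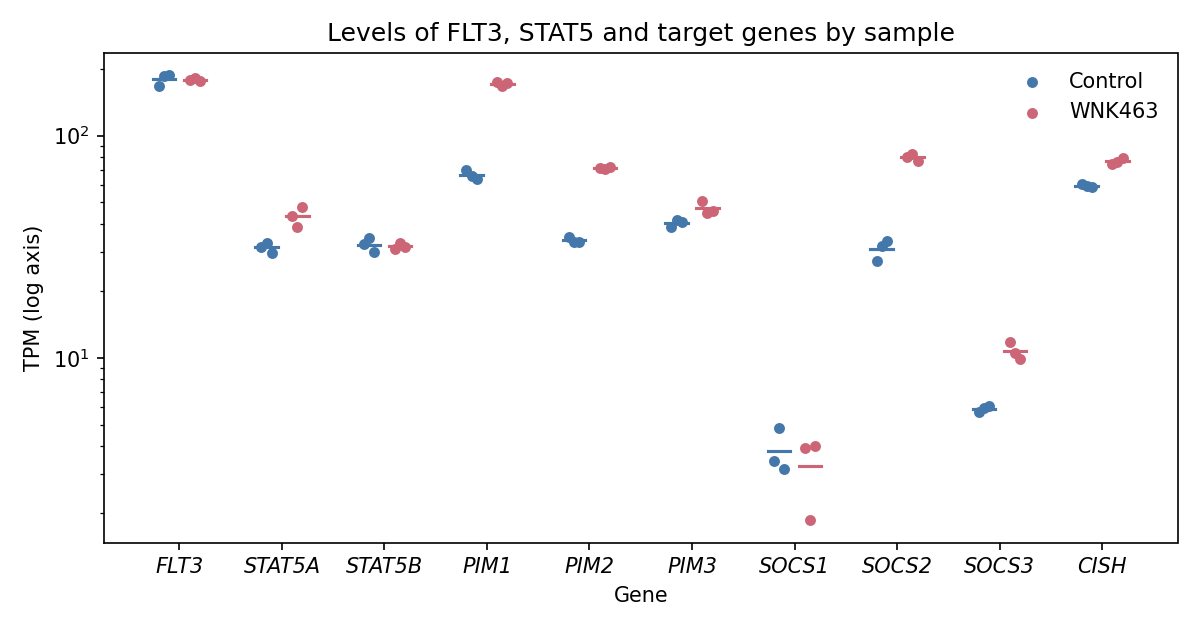
TPM of each gene in the 3 Control and 3 WNK463 samples (points) with the group mean (lines), on a log axis. *PIM1* comes close to *FLT3* with WNK463, at 170.7 against 178 TPM, and *SOCS2* moves from the level of the STAT5 genes to that of *CISH*.

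*FLT3* (ENSG00000122025) is encoded on the minus strand of chromosome 13, at 28003274 to 28100592 of GRCh38, and all positions below use this build. Its level was 348, 377 and 381 CPM in the Control samples and 318, 324 and 317 CPM with WNK463. All WNK463 samples lay below all Control samples on this scale, with a gap of 23.6 CPM between the nearest of them. This gave a log2 fold change of -0.20 ± 0.05 (SE, edgeR adjusted p = 8.3e-04), with a 95% interval from -0.30 to -0.11. With scaling by total counts it was -0.05 (adjusted p = 0.32 from edgeR), and in TPM it was -0.01 (adjusted p = 0.87 from limma), so the call rested on the scaling. Relative to the median gene, the change was -0.22 with either scaling of the counts. The deposited values are per gene and do not separate transcripts with and without the duplication. The genes whose profile over the 6 samples was most like that of *FLT3*, by the root mean square difference of centred log2 CPM, were *CDK11A* (0.0148), *TAF2* (0.0158) and *RAD21* (0.0187), out of 9004 genes with at least 10 CPM. Their log2 fold changes were -0.22, -0.21 and -0.20.

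*STAT5A* and *STAT5B* encode closely related transcription factors, and their genes are neighbours on chromosome 17. *STAT5A* lies from 42287547 to 42311943 on the plus strand and *STAT5B* from 42199168 to 42276707 on the minus strand. *STAT5A* had 63.8, 65.2 and 58.9 CPM in the Control samples and 76.4, 67.7 and 84.3 CPM with WNK463. The groups did not overlap, but the WNK463 samples were spread widely, and replicate 2 lay 2.44 CPM above the highest Control sample. *STAT5A* rose with a log2 fold change of 0.28 ± 0.07 (SE, edgeR adjusted p = 0.0023). It was 0.43 with total counts and 0.45 in TPM, and it ranged from 0.20 to 0.36 when single samples were omitted.

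*STAT5B* had 89.5, 92.9 and 80.8 CPM in the Control samples and 74.4, 79.0 and 75.7 CPM with WNK463. All WNK463 samples were below all Control samples, with a gap of 1.80 CPM between the nearest of them. *STAT5B* had a log2 fold change of -0.20 ± 0.06 (SE, edgeR adjusted p = 0.0069). It was -0.05 with total counts (adjusted p = 0.50 from edgeR) and -0.02 in TPM (adjusted p = 0.84 from limma), so this call also rested on the scaling. The comparison of the paralogs within each sample does not use a scaling between samples. *STAT5A* made up 49.4% ± 0.515 of the summed TPM of both genes in the Control samples, and this share was 57.6% ± 3.27 with WNK463 (SD, n = 3 each). The share was higher in all 3 WNK463 samples (p = 0.10 by a two-sided exact permutation test, the lowest value possible with 3 samples per group). How reads that match both genes were assigned is not given in the sources used here, so the split between the paralogs is uncertain.

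The PIM genes encode serine/threonine kinases that are active as soon as they are made, so their activity follows their amount. *PIM1* (ENSG00000137193) is on the plus strand of chromosome 6, at 37170203 to 37175426. It had 103, 95 and 92.0 CPM in the Control samples and 221, 210 and 221 CPM with WNK463. Every WNK463 sample was at least 2.03-fold above every Control sample. *PIM1* rose with a log2 fold change of 1.17 ± 0.05 (SE, edgeR adjusted p = 2.98e-12), and its p-value ranked 175 of the 11973 genes.

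*PIM2* (ENSG00000102096, chromosome X from 48913182 to 48919024, minus strand) had 39.6, 36.6 and 37.1 CPM in Control and 69.9, 68.3 and 71.1 CPM with WNK463. These groups lay far apart against a spread of at most 1.62 CPM (SD, n = 3). *PIM2* rose with a log2 fold change of 0.88 ± 0.06 (SE, edgeR adjusted p = 5.9e-10), and it was 1.04 with total counts. *PIM3* (ENSG00000198355, chromosome 22 from 49960513 to 49964080, plus strand) had 44.4, 46.6 and 46.0 CPM in Control and 50.1, 44.2 and 45.7 CPM with WNK463. Its groups overlapped, and only WNK463 replicate 1 lay above the Control samples. The log2 fold change of *PIM3* was 0.03 (95% interval from -0.11 to 0.17, adjusted p = 0.68 from edgeR), so changes as large as those of *PIM1* and *PIM2* lay outside its interval. With total counts it was 0.18 (adjusted p = 0.019 from edgeR), and in TPM it was 0.22 (adjusted p = 0.017 from limma).

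Summed over the 3 PIM genes, Control samples had 140.7 ± 3.18 TPM and WNK463 samples 289.3 ± 7.15 TPM (SD, n = 3 each), a ratio of 2.06. *PIM1* made up 47.2% ± 1.35 of this sum in Control and 59.0% ± 0.285 with WNK463, while *PIM3* made up 28.7% ± 1.55 and 16.3% ± 0.704. *PIM2* kept a share of 24% ± 0.422 and 24.7% ± 0.462, and its samples overlapped. For *PIM1* and *PIM3* the shares did not overlap between groups (p = 0.10 each by a two-sided exact permutation test, the lowest value possible here).

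**Figure D3:**
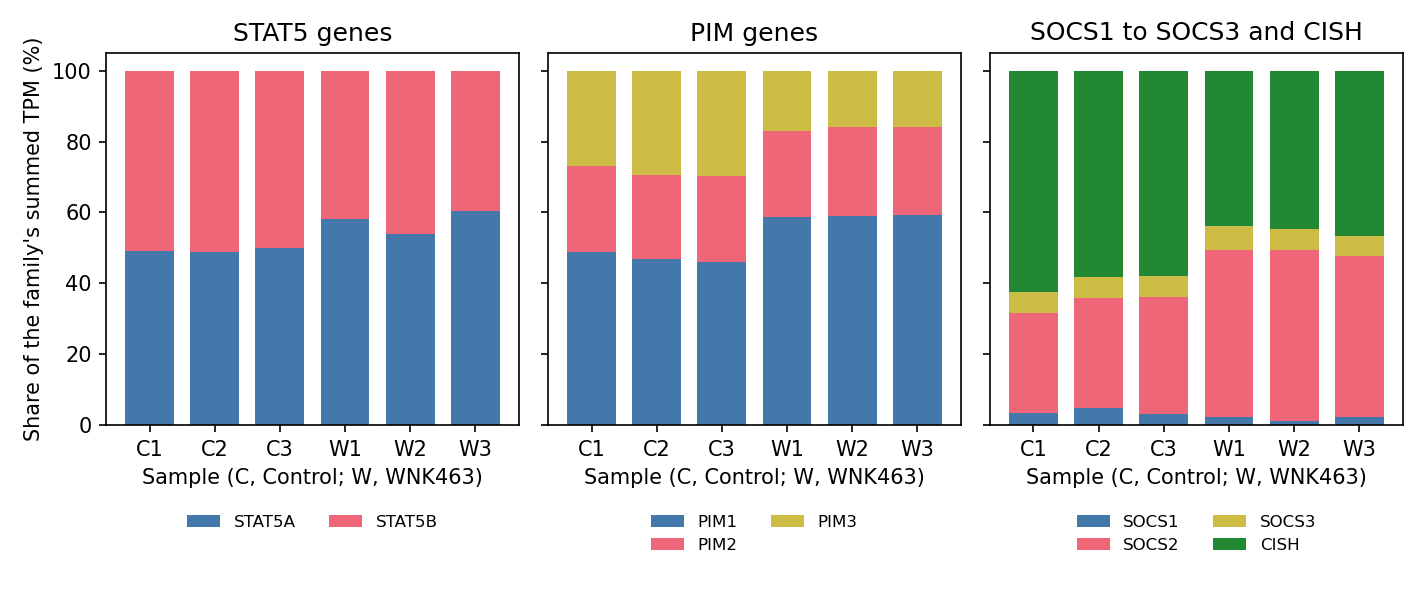
Share of each gene in the summed TPM of its family, in percent, for each Control (C) and WNK463 (W) sample. *STAT5A*, *PIM1* and *SOCS2* take a larger share in all 3 WNK463 samples, while *PIM3* and *CISH* take a smaller one.

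*SOCS2*, *SOCS3*, *SOCS1* and *CISH* encode feedback inhibitors with an SH2 domain and a SOCS box, and STAT5 is best known for inducing *CISH* and *SOCS2*. *SOCS2* (ENSG00000120833) is on the plus strand of chromosome 12, at 93569814 to 93583487. It had 25.4, 29.4 and 29.2 CPM in the Control samples and 67.7, 68.3 and 66.8 CPM with WNK463. The WNK463 samples lay within 1.48 CPM of each other, and the groups were far apart. Its log2 fold change of 1.27 ± 0.07 (SE, edgeR adjusted p = 2.21e-11) was the largest of the 10 genes with TMM scaling, with a 95% interval from 1.13 to 1.42. An antisense gene, *SOCS2-AS1*, overlaps *SOCS2*, and the sources do not say whether the counting used strand.

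*SOCS3* (ENSG00000184557, chromosome 17 from 78356778 to 78360077, minus strand) was expressed at a lower level, with 8.46, 8.71 and 8.90 CPM in Control and 15.2, 13.4 and 12.8 CPM with WNK463. These values rest on 127 to 251 counts per sample, and the groups did not overlap. *SOCS3* rose with a log2 fold change of 0.66 ± 0.11 (SE, edgeR adjusted p = 5.23e-05). *SOCS1* (ENSG00000185338, chromosome 16 from 11254405 to 11256200, minus strand) had only 22 to 48 counts per sample. Its levels were 2.31, 3.29 and 2.13 CPM in Control and 2.29, 1.28 and 2.36 CPM with WNK463, and the groups overlapped. Its log2 fold change of -0.38 had a 95% interval from -0.99 to 0.23 (adjusted p = 0.25 from edgeR). When single samples were omitted it ranged from -0.53 to -0.14, the latter without WNK463 replicate 2, and it was -0.19 without Control replicate 2. *SOCS1* overlaps *RMI2* on the other strand, whose log2 fold change was -1.42.

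*CISH* (ENSG00000114737) is on the minus strand of chromosome 3, at 50606490 to 50611831. It had 66.9, 64.0 and 63.4 CPM in Control and 70.8, 72.0 and 75.8 CPM with WNK463. The groups did not overlap, but the difference was small, since the means were 64.8 ± 1.87 and 72.8 ± 2.61 CPM (SD, n = 3). *CISH* rose with a log2 fold change of 0.17 ± 0.06 (SE, edgeR adjusted p = 0.013). The call was lost without Control replicate 2 (adjusted p = 0.067), without Control replicate 3 (adjusted p = 0.058) or without WNK463 replicate 3 (adjusted p = 0.078, all from edgeR). With total counts the log2 fold change was 0.32, and in TPM it was 0.36. *CISH* overlaps *MAPKAPK3* on the other strand, which fell with a log2 fold change of -0.83, and reads from such a pair cannot be told apart if strand was not used.

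The promoter of *CISH* is shown because STAT5 binds DNA at an inverted repeat, TTCNNNGAA, which reads the same on both strands. This motif was searched in the 250 bases before the annotated start in RefSeq (GRCh38.p14), which were found for 9 of the 10 genes. These starts can differ from the gene positions above, which are from GENCODE. The windows of *STAT5B* and *PIM3*, and a window each of *STAT5A* and *SOCS3*, lay inside those positions. The windows of *FLT3* and *CISH* lay partly inside them, so the search did not cover only bases before these genes. In these windows only *CISH* held the motif, with 4 sites that begin 241, 230, 129 and 112 bases before its RefSeq start. That start lies inside the gene position given above, so the sites lie nearer to the end of that position. Of 35116 such windows of all genes, 6.57% held at least 1 motif and 0.0142% held at least 4. The motif with 1 more base in its middle was found once, in a window of *STAT5A*, and in 5.38% of all windows. The pair of sites farther from the start lies at chr3:50611991-50612020, in an exon of *MAPKAPK3*, and the nearer pair at chr3:50611832-50611907, outside annotated exons. Both stretches are given 5′ to 3′ on the minus strand, with the motif in capitals.
CISH farther sites: ccgttTTCCTGGAAagTTCTTGGAAatctg
CISH nearer sites: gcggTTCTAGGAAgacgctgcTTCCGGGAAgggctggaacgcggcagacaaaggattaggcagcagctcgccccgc
A match of letters does not show that STAT5 was bound there in these cells, and its binding was not measured. *SOCS2* was not in the promoter table.

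The sum over *CISH* and the 3 SOCS genes was 100.1 ± 2.49 TPM in Control samples and 170.5 ± 0.545 TPM after WNK463 (SD, n = 3 each). *CISH* made up 59.5% ± 2.57 of this sum in Control and 45.0% ± 1.48 with WNK463, and *SOCS2* made up 30.8% ± 2.45 and 46.9% ± 1.49. *SOCS2* thus reached about the share of *CISH* with WNK463. The share of *SOCS3* was 5.90% ± 0.0901 and 6.27% ± 0.573, and its samples overlapped. The share of *SOCS1* was 3.79% ± 0.849 and 1.92% ± 0.725. Of the 9 shares tested over the STAT5, PIM and SOCS genes, 7 did not overlap between groups, each with a two-sided exact permutation p of 0.10 and 0.13 after Benjamini-Hochberg adjustment. In CPM, the groups did not overlap for 73.5% of all tested genes. Shares within a family are not independent, since a rise of any gene lowers the share of the others. *PIM3* and *CISH* took smaller shares although neither was lower in CPM. The shares of *STAT5A* and *STAT5B* are the same comparison read from either side.

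The other genes of the pathway were taken from 6 lists that hold 76 genes, of which 70 were tested. Together 35 of these were higher and 17 were lower with edgeR at an adjusted p below 0.05, so 74.3% were called against 70.8% of all tested genes. With total counts 42 were higher and 13 were lower. *CDKN1A* stood in 2 of the lists and was counted once. The medians of the log2 fold change lay between -0.00 and 0.37 in 5 of the lists and at 0.72 in the list of cytokine receptors.

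**Figure D4:**
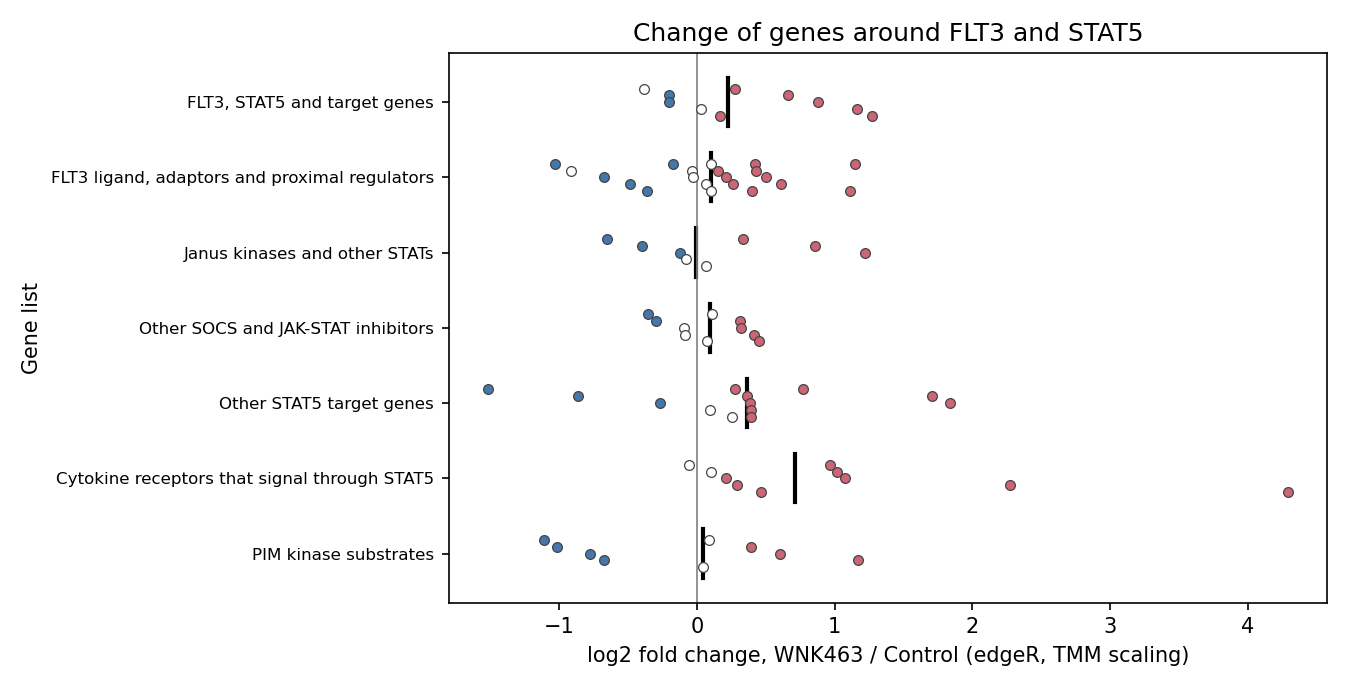
Log2 fold change (edgeR, TMM scaling) of each tested gene in the 6 pathway lists and of the 10 genes described here, with 1 point per gene, the list median as a black bar and filled points at an adjusted p below 0.05. The cytokine receptors hold 8 filled points above 0 and 0 below, and the other lists have filled points on both sides.

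Of 10 tested genes for receptors that signal through STAT5, 8 were higher and 0 were lower, so 80% were called in either direction against 70.8% of all tested genes, of which 35.5% were higher, and *EPOR* and *IL2RB* did not pass. These 8 calls also held with total counts. The other listed receptors were too low to be tested. *IL7R*, the specific chain of the interleukin 7 receptor, had 0.670, 1.85 and 2.01 CPM in Control and 31.6, 27.3 and 29.4 CPM with WNK463, a log2 fold change of 4.29. *IL2RG*, the common gamma chain that pairs with it, rose from 6.64 ± 0.752 to 32.3 ± 2.07 CPM (SD, n = 3 each). *CSF2RA*, the specific chain of the GM-CSF receptor, rose from 15.7 ± 1.27 to 33.1 ± 0.819 CPM. *CSF2RA* and *IL3RA* each had a pair of rows with identical counts, and 1 row of each was used. The T cell markers *CD3D*, *CD3E* and *CD2* summed to 0 CPM in the Control samples and to at most 0.0638 CPM with WNK463.

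Of 8 tested Janus kinases and other STAT genes, 3 were higher and 3 were lower (75% called, against 70.8% of all tested genes). *STAT4* was too low to be tested. *JAK2*, which relays signals from the receptors for GM-CSF and interleukin 3, had 34.1, 40.0 and 41.3 CPM in Control and 85.5, 95.1 and 87.8 CPM with WNK463. *JAK2* rose with a log2 fold change of 1.22 ± 0.07 (SE, edgeR adjusted p = 7.16e-11), and the groups were far apart. *STAT2* and *STAT3* rose with log2 fold changes of 0.86 and 0.33. *STAT6* fell with a log2 fold change of -0.65, and *JAK1* had -0.12, which turned to 0.03 with total counts.

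Of 21 genes for the ligand, the adaptors and the proximal regulators of FLT3, 10 were higher and 5 were lower. This was 71.4% called, close to the 70.8% of all tested genes. *GAB2*, an adaptor that links such receptors to PI3K and SHP2, rose from 102.6 ± 4.18 to 221 ± 6.21 CPM (SD, n = 3 each). The Src family kinase gene *FGR* and the RAS activator gene *SOS1* rose with log2 fold changes of 1.15 and 0.61. *SLA*, an adaptor that promotes the turnover of receptors, fell from 65.4 ± 1.39 to 32.1 ± 1.60 CPM. *SYK* and *SHC1* fell with log2 fold changes of -0.67 and -0.48. The ligand gene *FLT3LG* had 5 to 17 counts per sample and did not pass (log2 fold change -0.91, adjusted p = 0.052 from edgeR), although its groups did not overlap. Its mean TPM had a ratio of 0.609. On log2(TPM + 1) it passed, with a log2 fold change of -0.44 (adjusted p = 0.044 from limma), which the added 1 makes smaller at so low a level. In this list 4 genes were lower in that fit and 3 with log2(TPM + 0.1), so a call this near the threshold is uncertain.

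The 13 other STAT5 target genes went both ways, with 8 higher and 3 lower (84.6% called, against 70.8% of all tested genes). *BCL6*, which encodes a transcriptional repressor, rose from 2.72 ± 0.581 to 9.75 ± 1.73 CPM (SD, n = 3 each). *IGF1*, a growth factor gene, rose from 73.9 ± 9.35 to 241.6 ± 14.9 CPM, and *IL2RA*, the alpha chain of the interleukin 2 receptor, rose with a log2 fold change of 0.77. The survival genes *BCL2L1* and *MCL1* had log2 fold changes of 0.39 and 0.37, and both passed. *CCND1* and *MYC* fell with log2 fold changes of -0.87 and -0.26. The value of *CCND1* rests on 28 to 65 counts per sample, and its mean TPM had a ratio of 0.625. On log2(TPM + 1) its log2 fold change was -0.36 (adjusted p = 0.045 from limma), which the added 1 makes smaller at so low a level. In this list 2 genes were lower in that fit and 1 with log2(TPM + 0.1), so a call this near the threshold is uncertain. *MYC* did not pass in TPM (adjusted p = 0.29 from limma).

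Of the 10 other inhibitors of JAK-STAT signalling, 4 were higher and 2 were lower (60% called, against 70.8% of all tested genes). All changes were below 0.5 on the log2 scale. The higher ones were *SOCS4*, *PTPN2*, *SOCS6* and *SOCS7*, with log2 fold changes between 0.31 and 0.45. The lower ones, *PIAS2* (-0.35) and *PIAS4* (-0.29), did not pass with total counts (adjusted p = 0.058 and 0.066 from edgeR). Of 9 genes whose proteins are PIM substrates, 3 were higher and 4 were lower (77.8% called, against 70.8% of all tested genes). *CDKN1B*, which encodes the cell cycle inhibitor p27, rose from 86.7 ± 5.14 to 195.4 ± 1.83 CPM (SD, n = 3 each), and *FOXO3* and *CDKN1A* rose with log2 fold changes of 0.60 and 0.39. *CDC25A*, a phosphatase gene that drives the cell cycle, fell from 80.5 ± 1.62 to 37.4 ± 2.22 CPM, and *CXCR4* and *EIF4EBP1* fell with log2 fold changes of -1.01 and -0.78.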

How the data were processed

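RNA-seq of MV4-11 cells was analysed for 3 Control and 3 WNK463 samples, grouped by their titles. The submitters' processing notes name fastp, Bowtie2, HISAT2, StringTie, RSEM, DESeq2 and edgeR without roles, and GRCh38. The authors deposited estimated counts per gene as whole numbers (in 62 cells the count was 0 while TPM was above 0), TPM values per sample, and columns of their own comparison (group means, fold change, p-value, adjusted p), which were not used.

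Counts were tested with edgeR 4.0.16 in R 4.3.3 (TMM factors, filterByExpr, a quasi-likelihood test, Benjamini-Hochberg over 11973 genes, threshold 0.05). Standard errors were derived from the fold change and its F statistic, and 95% intervals use the degrees of freedom of the fit. Alternatives were DESeq2 1.42.0, total-count scaling, other filters, limma 3.58.1 on log2(TPM + 1) and log2(TPM + 0.1), glmTreat at a log2 threshold of 0.5, a replicate block, and each sample left out. Log2 fold changes given in TPM are from log2(TPM + 1) unless stated. The procedure was also run on simulated counts in which few genes changed, evenly in both directions. That setting differs from these data, so it does not bear on the choice of scaling. Gene positions are from GENCODE 29 (GRCh38). From each list, up to 3 genes per direction were named by the size of their change among called genes with at least 1 CPM on average and groups that did not overlap, with the 3 genes whose profile was nearest to that of *FLT3*, and *BCL2L1*, *MCL1*, *SOCS7*, *FLT3LG*, *EPOR* and *IL2RB* were named after their values were seen. The genes and lists were chosen with earlier results of these data known. Some listed genes that the rule names are not reported here.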

Additional observations from a re-analysis of the deposited data

How the results depend on the processing

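The log2 fold changes of *PIM1*, *PIM2*, *SOCS2*, *SOCS3* and *STAT5A* kept their direction and their call under all 13 alternatives run for each. *SOCS1* was called under none of them. These 13 do not include glmTreat. *FLT3* lost its call with total counts (-0.053), log2(TPM + 1) (-0.010) and log2(TPM + 0.1) (-0.011), and so did *STAT5B* (-0.047, -0.018 and -0.018), while *PIM3* gained one (0.18, 0.22 and 0.22). In these 3 fits 0 of the 10 genes were lower. With each sample left out, *PIM3* ranged from -0.024 (without WNK463 replicate 1) to 0.068 and *CISH* from 0.14 to 0.19, and *CISH* lost its call in 3 of these 6 fits. With glmTreat, which tests for a change beyond 0.5 on the log2 scale, 3 of the 10 genes were higher and 0 lower, in place of 6 and 2. *FLT3*, *STAT5B*, *STAT5A* and *CISH* had smaller changes than this and could not pass there, so their loss does not bear on their calls. The share over all genes is not given for this test. Among all genes, 2698 were lower with log2(TPM + 1) and 2694 with log2(TPM + 0.1) in place of 4222, and with the fold limit 265 and 416 in place of 665. With at least 10 counts in every sample, 740 genes were higher with the fold limit in place of 1152. In the pathway lists 10 genes were lower with log2(TPM + 0.1) in place of 17. The share of *PIM2* changed by 0.65 percentage points in TPM and by -0.053 in CPM. The labels do not say whether replicate numbers pair the libraries. Deviations of same-numbered Control and WNK463 samples correlated at 0.019, -0.0071 and -0.048 across genes. No shared deviation was thus seen, which cannot show how the samples were prepared. A fit with the replicate block called 4223 genes higher and 4175 lower, and in it 6 of the 10 genes were higher and 2 lower, and *FLT3* had -0.20. The values of *SOCS1* rest on 22 to 48 counts per sample, and it ranged from -0.53 to -0.14 with each sample left out.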
